A study of Drosophila melanogaster with 46 samples.

Results

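The region from yellow (y) to asense (ase) near the tip of the Drosophila melanogaster X chromosome held 7 of the 14902 peaks in the 7 chromatin immunoprecipitation sequencing (ChIP-seq) lists, at 3 of the 7418 binding places. The region was taken from 10 kb before y to 10 kb past ase, which is 126.668 kb at chrX:346509-473176 of the dm6 build, and its members are the genes y, ac, sc, l(1)sc and ase. A binding place is a run of peaks from any of the lists that overlap by at least 1 bp. One place, beside y in the interval between y and ac, carried Su(Hw) in adults and larvae together with larval CP190. A weaker place at CG43181, on the other side of y, carried Pita in adults and larvae together with larval CP190. A single weak larval Pita peak lay between l(1)sc and Pgcl, and CTCF had no peak in the region at either stage.

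The y gene encodes a secreted protein needed for black cuticle pigment. The achaete-scute genes encode basic helix-loop-helix transcription factors: ac and sc give cells of the epidermis the competence to form sensory bristles, sc is also one of the X-linked signals that count sex chromosomes, l(1)sc acts in early neuroblasts, and ase acts in neural precursor cells. Of these genes, ac and sc share enhancers spread over the long intervals around them. CTCF, Pita and Su(Hw) bind DNA through clusters of C2H2 zinc fingers, and CP190 is a partner protein found with them at insulators. The interval between y and ac is known for an endogenous Su(Hw) insulator, and y has long served as a reporter in work on insulators.

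The lists used come from whole animals of strain y1w1118. Those of CTCF, Pita and Su(Hw) are named as wild type, and the matching samples have genotype dCTCFwt, with 2 adult samples per protein, 4 larval CTCF samples and 2 larval samples each of Su(Hw) and Pita. CTCF was precipitated through an HA tag. The name of the CP190 list gives larvae but no genotype, and of the 18 CP190 samples 4 are dCTCFwt larvae and 14 carry dCTCFdeltaCP alone or with SuHwdelta114, PitadeltaCP1 or both, so that list may mix genotypes. All samples share a strain whose name carries a mutant y allele, y1, which is known as a change in the start codon and leaves the locus in place. The labels give a rabbit antibody for CP190 in dCTCFwt larvae and a rat antibody in the mutants, while the protocol lists rat anti-CP190 only, and the protocol describes larval chromatin for the adult samples too.

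Every list is an authors' table of peaks found in a pair of input lists, and the samples behind each input are not given in the sources used here. A peak therefore has 1 fold enrichment, over a control that is not named, with no error between replicates, and no test between stages or proteins was possible. Read depth is unknown. The fold enrichment and the interval belong to the first input. The −log10 p of both inputs is the closest view of repeat measurements, though the inputs need not be separate replicates. The global irreproducible discovery rate (IDR) of a peak estimates the share of irreproducible peaks among those at least as reproducible. In whole animals, binding in more cells and stronger binding per cell cannot be told apart. Folds of different lists stand side by side below and were not divided by each other.

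**Figure D1:**
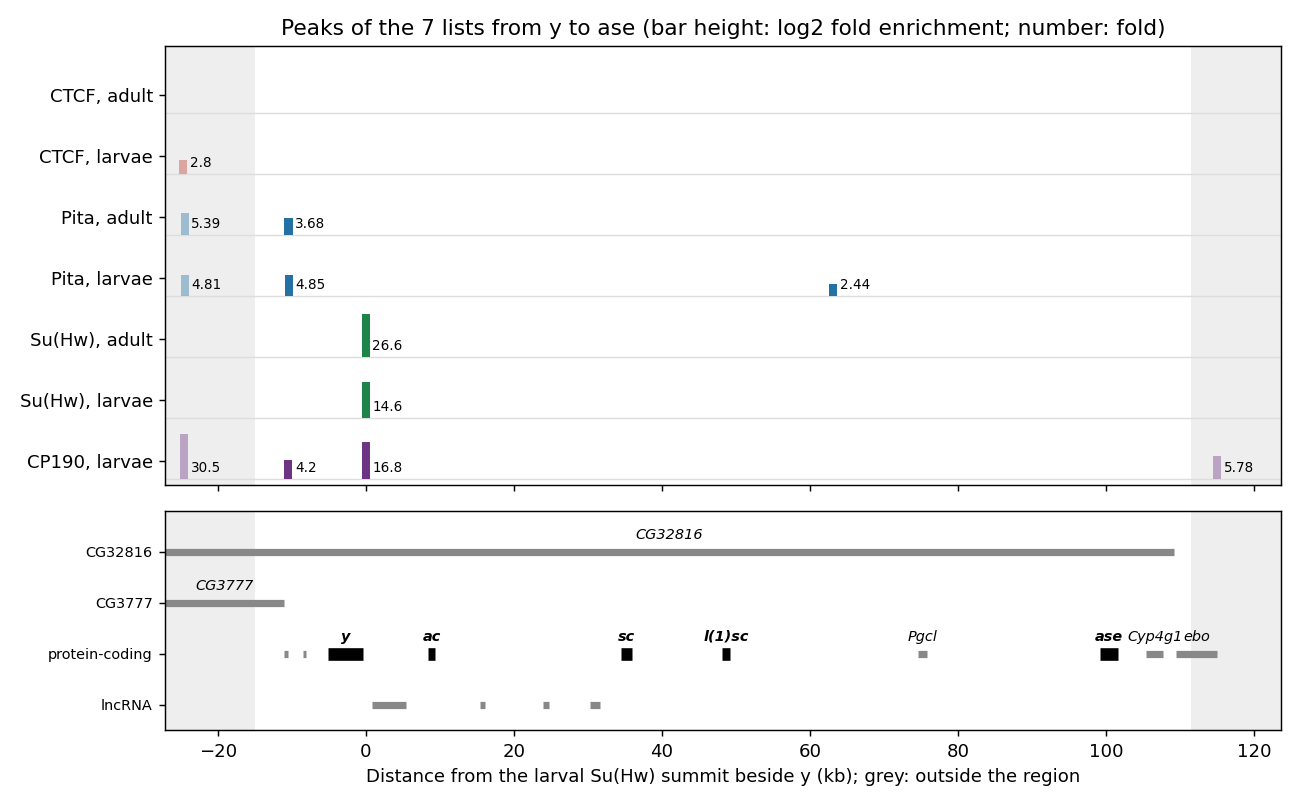
Peaks of the 7 lists along the region, with distance in kb from the larval Su(Hw) summit beside y on the horizontal axis, 1 row per list, bars of log2 fold enrichment drawn wider than the peaks, and the fold printed beside each bar. Genes are drawn below, the 5 members in black. The unshaded region holds 3 places, with folds of 26.6, 14.6 and 16.8 beside y, 3.68, 4.85 and 4.2 at CG43181, and 2.44 between l(1)sc and Pgcl.

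The place beside y carried Su(Hw) at both stages. Its Su(Hw) fold enrichment was 26.6 in adults and 14.6 in larvae, and the CP190 peak at the same place reached 16.8. The adult peak covered chrX:361120-361910, the larval peak chrX:361338-361778 and the CP190 peak chrX:361314-361970. The adult peak overlapped the end of y at base 361245, while the larval Su(Hw) peak began 93 bp and the CP190 peak 69 bp past it. The other end of the interval is formed by ac, whose nearest edge lay 8.121 kb from the adult Su(Hw) peak, 8.253 kb from the larval one and 8.061 kb from CP190. The long noncoding RNA gene lncRNA:yar (bases 362399 to 367072), transcribed between y and ac, lies between the place and ac. All of these positions also fall in the span of CG32816, a protein-coding gene annotated from 316576 to 470726, so no place of the region is strictly intergenic in this annotation.

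All 3 of these peaks ranked high in their own lists. The adult Su(Hw) peak was rank 219 of 3115 by fold, the larval peak rank 617 of 3374 and the CP190 peak rank 724 of 4220. The lists had median folds of 9.38, 6.81 and 5.02. The place was thus in the upper quartile of each list, and nearer the top of the adult Su(Hw) list than of the larval one. Lists of different length and control do not give a change between stages by rank.

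The inputs of each list placed the summits nearly on the same base. In the adult Su(Hw) list the summit was at 361584 in the first input and 361586 in the second, and in the larval list at 361592 and 361589. For CP190 it was at 361618 and 361614. The −log10 p of the adult Su(Hw) peak was 376 in the first input and 1012 in the second, a ratio of 2.69 where the median ratio of that list was 2.12. The larval Su(Hw) peak had 292 and 287, and the CP190 peak 475 and 492. The inputs thus lay close together in the larval Su(Hw) and CP190 lists and apart in the adult Su(Hw) list. The same held over these lists as a whole, with median ratios of 1.005, 1.000 and 2.12. The IDR was 0.000128 in adults, 1e-05 in larvae, which is the lowest value the list gives, and 0.00162 for CP190. How the inputs were made is not given and may differ between lists. Neither the closeness of inputs nor the IDR therefore ranks the peaks of different lists by replication. The second adult input also had a wider peak, from 360566 to 361944, which reached farther into y.

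A Su(Hw) peak with larval CP190 is less common than one without. At this place 1 of 1 adult and 1 of 1 larval Su(Hw) peaks of the region overlapped a larval CP190 peak. Over the whole lists 36.9% of adult and 34.9% of larval Su(Hw) peaks did so. There is no adult CP190 list, so the adult shares set adult binding against larval CP190. The overlap of the stages is common, since 93.7% of adult Su(Hw) peaks overlapped a larval peak and 86.9% of larval Su(Hw) peaks an adult one. Seen from CP190, 1 of its 2 peaks in the region carried larval Su(Hw), against 28% of all CP190 peaks. With so few peaks these counts describe the place and give no rate for the region. The summit of the larval Su(Hw) peak lay 26 bp from that of CP190, and over 1179 such overlaps the median distance was 17 bp (quartiles 6 and 36 bp). Adult and larval Su(Hw) summits were 8 bp apart, against a median of 10 bp over 2918 overlaps.

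The combination of adult Su(Hw), larval Su(Hw) and CP190 without Pita or CTCF occurred at 927 places, 163 of them on X. Within these, the place beside y had a high adult Su(Hw) fold, exceeded at 137 places (14.8%; class median 14.6). Its CP190 fold was exceeded at 188 places (20.3%; class median 7.57) and its larval Su(Hw) fold at 358 places (38.6%; class median 11.4). A gene end within 500 bp, as that of y here, was found at 50.3% of the 927 places (exact Clopper-Pearson 95% interval 47.0% to 53.5%). Among the 1726 places with Su(Hw) at both stages and no CP190 it was found at 17.3% (15.5% to 19.1%), a description of the lists without a test.

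**Figure D2:**
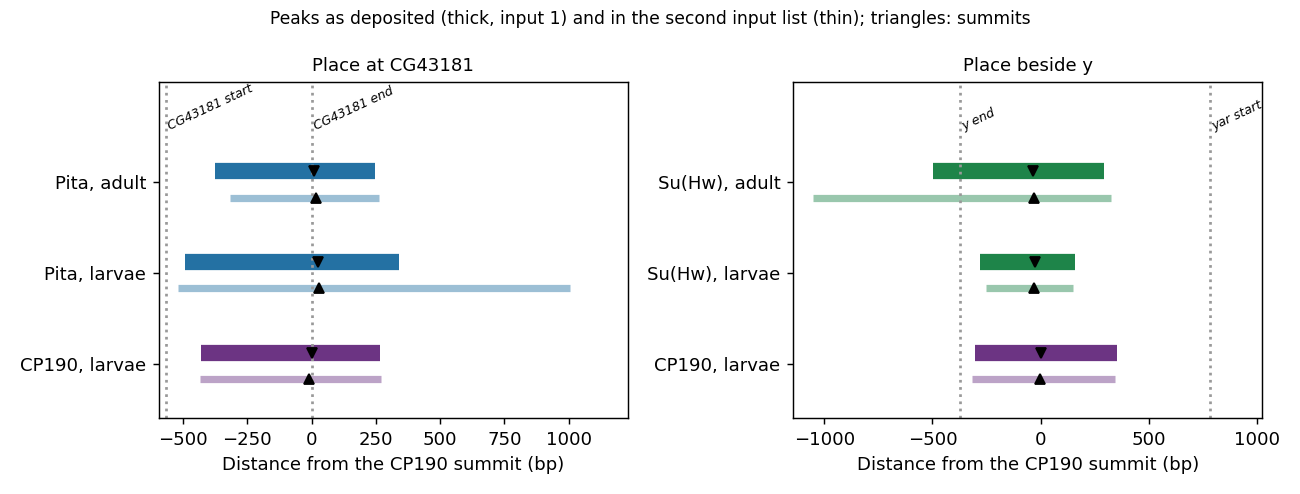
Extent of each peak at the place at CG43181 and the place beside y, as distance in bp from the CP190 summit, with the deposited peak of the first input as a thick bar, the peak of the second input as a thin bar and triangles at the summits. All summits of the first input lie within 25 bp of each other at CG43181 and within 34 bp beside y.

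The place at CG43181 had low folds in every list. Pita reached 3.68 in adults and 4.85 in larvae, and CP190 reached 4.2. The adult Pita peak covered chrX:350759-351380, the larval one chrX:350642-351472 and the CP190 peak chrX:350702-351399. The peaks overlapped the end of CG43181 at base 351133, which is the CP190 summit itself, and CG3777 ends within 500 bp of them. From y the place was 5.129 kb away by the adult Pita peak and 5.037 kb by the larval one. The role of CG43181 and CG3777 is not given by the files.

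By fold the adult Pita peak was rank 1025 of 1498, the larval one rank 693 of 1213, and the CP190 peak rank 2465 of 4220, all in the lower part of their lists. The median folds were 7.12, 5.97 and 5.02. The −log10 IDR of the CP190 peak was 2.87, at percentile 95.7 of the list. The values of that list lie close together, with a median of 2.80 and 2.79 (percentile 44.6) for the CP190 peak beside y. The −log10 p of the CP190 peak at CG43181 was 46.4 and 46.1 in the inputs. The adult Pita peak had −log10 p of 26.7 and 35.3, and the larval peak 47.0 and 106, where the median ratio of inputs in the larval Pita list was 1.85. The IDR was 0.00361 in adults and 0.000803 in larvae.

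Overlap with larval CP190 is the usual state of a Pita peak. In the region 1 of 1 adult Pita peaks and 1 of 2 larval ones overlapped a larval CP190 peak. Over the whole lists 63.6% of adult and 70.7% of larval Pita peaks did so, and CP190 in adults is not known. Likewise 1 of 1 adult Pita peaks had a larval partner, against 69.8% of the list, and 1 of 2 larval ones an adult partner, against 84.7%. Of the 2 CP190 peaks 1 carried larval Pita, against 20.5% of all CP190 peaks, and neither carried larval CTCF, which 11.8% of all CP190 peaks did. Adult Pita, larval Pita and CP190 without the other proteins were found at 526 places, 111 of them on X. The place at CG43181 was among the weaker of these, with its adult Pita fold exceeded at 93.9%, its larval Pita fold at 74.1% and its CP190 fold at 84.6% of them. As here, 88.2% of the 526 places had a gene end within 500 bp (exact 95% interval 85.1% to 90.8%).

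The only peak among the achaete-scute genes themselves was a larval Pita peak at chrX:424487-424997, between l(1)sc and Pgcl, a gene named for its likeness to pepsinogen. Its fold was 2.44, rank 978 of 1213. Its −log10 p was 10.3 in the first input and 17.3 in the second, and its IDR of 0.00376 was in the less reproducible part of the list, at percentile 12.9. The summit lay 11383 bp from the nearest gene end, that of Pgcl, and the peak 13.67 kb from l(1)sc. Larval Pita without any other peak was found at 83 places, 31 of them on X, with a median fold of 2.22. A gene end within 500 bp, which is absent here, was found at 63.9% of these (exact 95% interval 52.6% to 74.1%). In all, 2 of the 3 places of the region carried CP190, against 56.3% of all places.

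**Figure D3:**
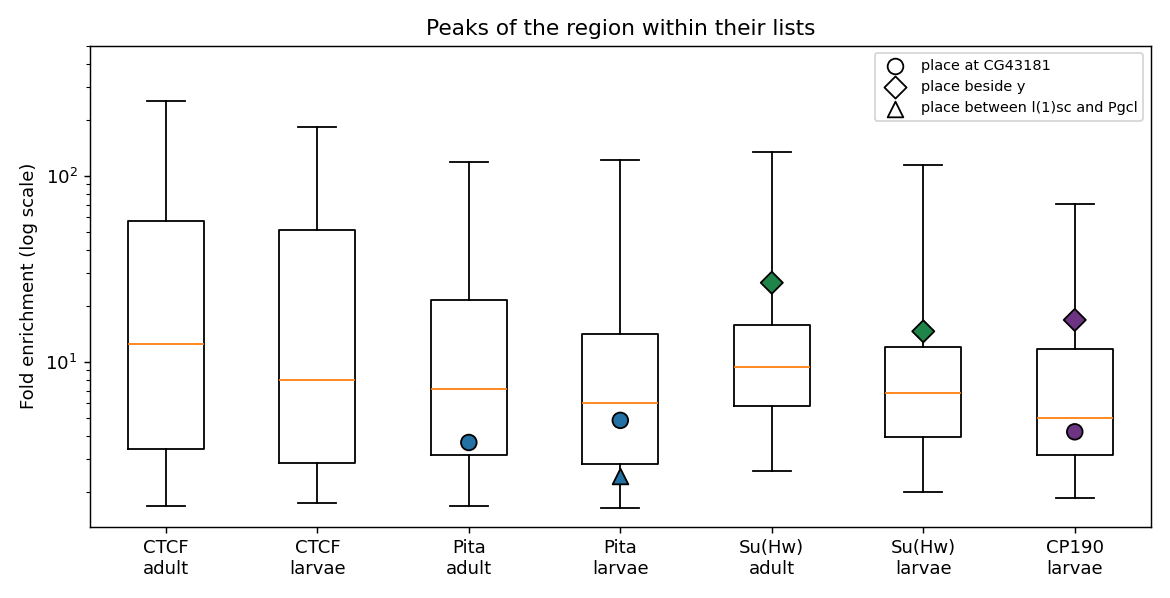
Fold enrichment on a log axis for each list, with boxes from the first to the third quartile, the median as a line and whiskers to the lowest and highest peak, and the peaks of the region as filled symbols. The place beside y lies above the upper quartile in its 3 lists, the place at CG43181 below the median in its 3 lists, and the lone larval Pita peak below the lower quartile of 2.82.

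The genes differed in how far they lay from binding. The span of y was overlapped by a peak, ac lay 8.061 kb from the nearest peak of any list, ase 13.089 kb, l(1)sc 13.67 kb and sc 26.99 kb. Over all 13946 protein-coding genes the median distance was 0.961 kb. A longer distance than that of ac was found for 17.7% of genes, than that of ase for 9.86%, than that of l(1)sc for 9.31% and than that of sc for 3.76%. From CP190 the distances were 0.069 kb for y, 8.061 kb for ac, 13.089 kb for ase, 34.09 kb for sc and 47.751 kb for l(1)sc, against a median of 2.255 kb. Only 4.49% of genes lay farther from CP190 than l(1)sc. The distances of sc and l(1)sc from any list rest on the lone larval Pita peak.

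For Su(Hw) the peak beside y was the nearest one for ac, sc and l(1)sc at both stages. The distance was 34.15 kb in adults and 34.282 kb in larvae for sc, and 47.811 kb and 47.943 kb for l(1)sc. The neighbouring peak in the other direction, near CG17778, was nearest to ase, at 30.587 kb in adults and 30.44 kb in larvae, with folds of 24.3 and 16.8. No other Su(Hw) peak lay between these 2 sites. On the far side of y the next Su(Hw) peak was within CG13376, 80.115 kb from the region in adults and 79.678 kb in larvae, with folds of 17.1 and 15.2. The nearest adult CTCF peak above the region lay within CG4293 at a fold of 7.31, 56.595 kb away, and the larval one at the same gene at 13.1-fold. Below the region the nearest adult CTCF peak was 292.004 kb away, and a larval CTCF peak of 2.8-fold was 9.231 kb away.

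A stretch of 62.516 kb without a peak of any list ran from the place beside y to the lone Pita peak and held ac, sc, l(1)sc, lncRNA:yar and 3 further long noncoding RNA genes. A further 51.267 kb followed up to a CP190 peak beyond the region and held Pgcl, ase and Cyp4g1, a cytochrome P450 of hydrocarbon synthesis. Of the 1336 stretches between neighbouring places on X the first was rank 42 and the second rank 65 by length, and the median was 10.335 kb. The stretch between the places at CG43181 and beside y was 9.647 kb, near that median. Without the lone Pita peak the 2 long stretches join to 114.294 kb.

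**Figure D4:**
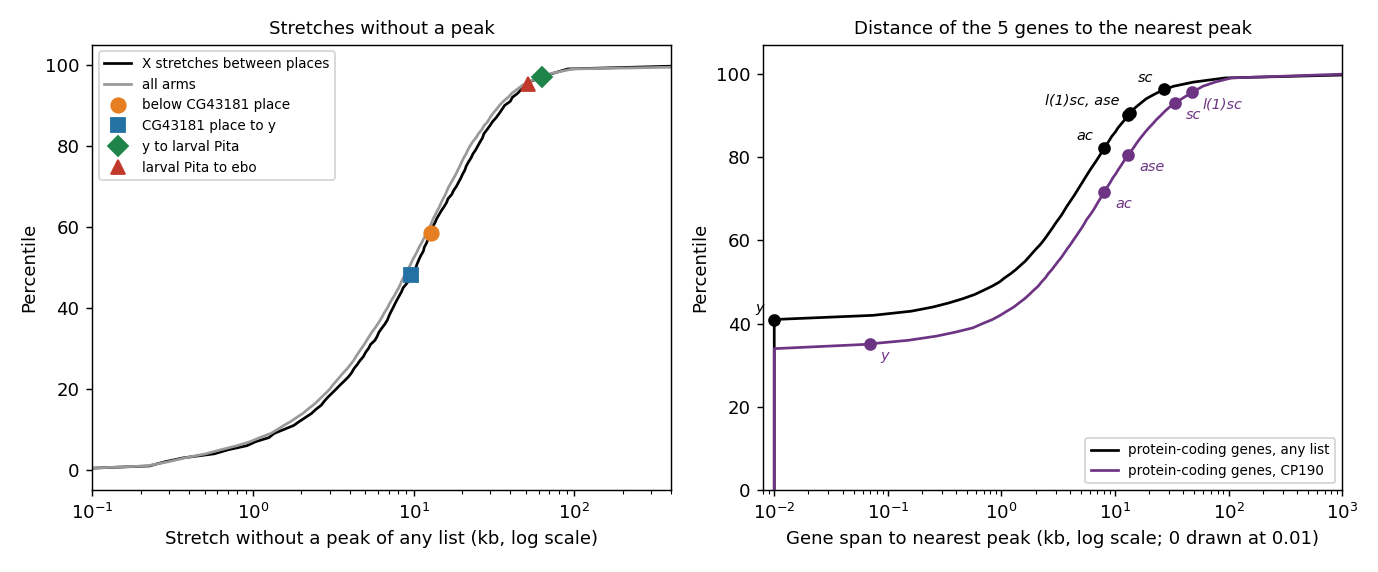
Left, cumulative percentile of stretches without a peak (kb, log axis) on X and on all arms, with the 4 stretches that touch the region as symbols. Right, cumulative percentile of the distance from each protein-coding gene to the nearest peak of any list and of CP190 (kb, log axis), with the 5 genes marked. The stretches of 62.516 and 51.267 kb and the genes sc, l(1)sc and ase lie in the upper part of the curves, and y at the lower end.

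Of the 16 annotated genes that touch the region, 5 had an end within 500 bp of a peak: CG3777, CG43181, y, lncRNA:yar and ebo, the last through the CP190 peak beyond the region. Among the 5 members y had an end near the adult Su(Hw), larval Su(Hw) and CP190 peaks and the other 4 had none, so 1 of 5 had a peak of any list, against 42.1% of protein-coding genes. In single lists the share of protein-coding genes was 4.09% for adult CTCF, 5.19% for larval CTCF, 11.1% for adult Pita and 10.5% for larval Pita. It was 7.23% for adult Su(Hw), 8.46% for larval Su(Hw) and 35.7% for CP190. The edge at 10 kb decides what is counted. Just inside it the place at CG43181 is the outermost, and just outside are a CP190 peak 3.089 kb past the region, 14 bp from an end of ebo (5.78-fold), and a place 8.669 kb before it. The place within CG3777 carried CP190 at 30.5-fold, adult Pita at 5.39-fold, larval Pita at 4.81-fold and larval CTCF at 2.8-fold.

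Peaks were sparser in the region than on X, and the lists took unequal parts in this. The region held 5.53 peaks per 100 kb over all lists, the bithorax complex 14.3, the Antennapedia complex 13.7, X 11.9 and all arms 10.9. The complexes are the clusters of Hox genes, taken from Ubx to Abd-B and from lab to Antp with the same flanks. CTCF had 0 peaks in the region at both stages. It had 9 adult and 13 larval peaks in the bithorax complex, which is 2.68 and 3.87 per 100 kb. In the Antennapedia complex it had 5 adult and 7 larval peaks, which is 1.4 and 1.96 per 100 kb. Over X, CTCF was sparse as well, with 0.514 per 100 kb in adults and 0.693 in larvae. At such rates a region of 126.668 kb without a CTCF peak is not unusual. Su(Hw) had 0.789 peaks per 100 kb in the region in adults and in larvae, in the bithorax complex 0.596 at each stage, and in the Antennapedia complex 0.838 in adults and 0.559 in larvae, against 2.62 in adults and 2.68 in larvae over X. Larval Pita, with 1.58 per 100 kb in the region and 1.15 on X, was the list that was denser in the region. That list and the adult Su(Hw) list have a looser IDR limit than the others, and adult Su(Hw) was sparser in the region than on X. Both larval Pita peaks of the region, with IDR of 0.000803 and 0.00376, stayed at a limit of 0.01. Whether the limit has a part in the density was not tested. CP190 had 1.58 in the region and 3.17 on X. A region of this size holds few peaks on average, and no test of these differences was made.

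**Figure D5:**
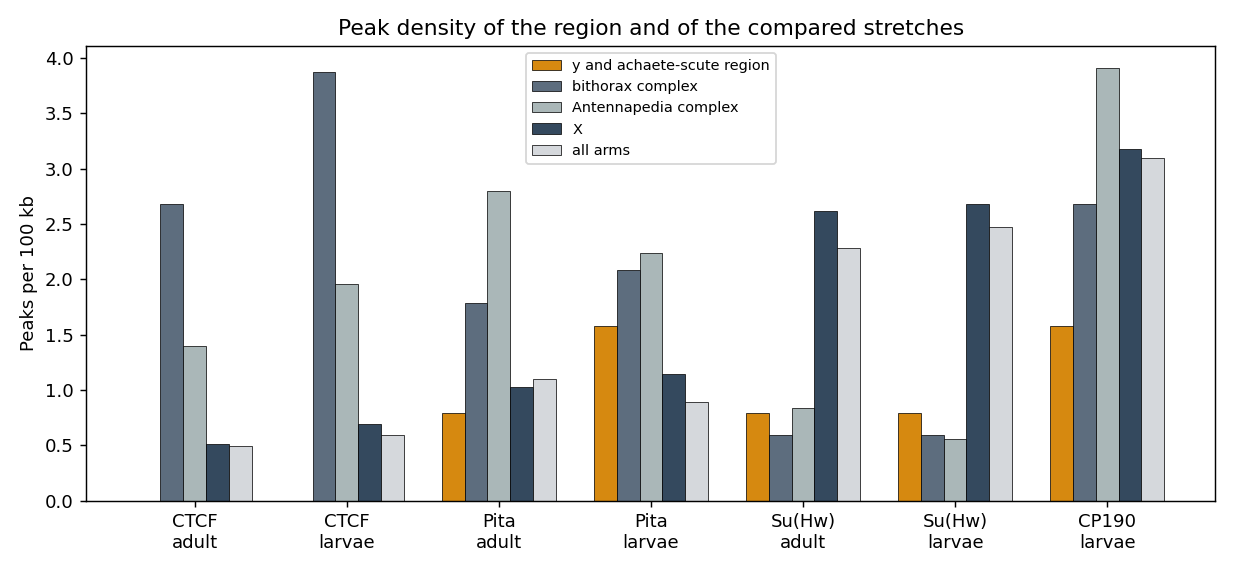
Peaks per 100 kb in each list for the y and achaete-scute region, the bithorax complex, the Antennapedia complex, X and all arms. The region has no bar for CTCF at either stage, and its Su(Hw) bars of 0.789 lie below the 2.62 and 2.68 of X.

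The longest stretch without a peak was 62.516 kb in the region, 66.035 kb in the bithorax complex and 70.986 kb in the Antennapedia complex, where it ran past the edge. The median stretch was 32.034 kb here, 12.963 kb in the bithorax complex and 13.4855 kb in the Antennapedia complex, over 4, 18 and 18 stretches. The 5 members lay between 0 and 26.99 kb from a peak of any list, against 0 to 7.748 kb for the 8 Hox genes. The members span 0.917 to 4.737 kb and the Hox genes 10.593 to 102.976 kb. Whether gene length accounts for the difference in distance was not tested.

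Several genes that act with the achaete-scute factors had CP190 near an end. Of 24 regulators of proneural activity 12 (50%) had an end within 500 bp of a CP190 peak, beside the 35.7% of all protein-coding genes. A peak of any list was near 13 of them (54.2%), beside 42.1% of all protein-coding genes. These differences were not tested. The 12 genes need not be separate sites, since some had the same CP190 fold (6.5), as genes that share a peak would. The highest CP190 folds were at phyl (30.4), which promotes bristle precursor fate, chn (26.7), an activator of achaete-scute expression, pnr (17.6), a GATA factor that drives ac and sc in the thorax, and neur (8.22), a ubiquitin ligase of Notch signalling. Su(Hw) was near 4 of the 24 at both stages (16.7%), beside 7.23% of all protein-coding genes in adults and 8.46% in larvae. Its folds were 25.3 in adults and 22.6 in larvae at chn, 21.4 and 16.0 at phyl, 17.8 and 18.5 at pnr, and 5.77 and 6.02 at E(spl)m3-HLH, a Notch-induced repressor. These 4 genes also had a CP190 peak near an end, and whether it overlapped the Su(Hw) peak was not examined. As for y, no peak of CTCF or Pita was near an end of phyl, pnr or E(spl)m3-HLH, while chn had both.

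CTCF was near 1 of the 24 regulators in adults (4.17%, beside 4.09% of all protein-coding genes) and 2 in larvae (8.33%, beside 5.19%). Pita was near 3 in adults (12.5%, beside 11.1%) and 2 in larvae (8.33%, beside 10.5%), so these shares were near those of all genes. CTCF was near N, the Notch receptor gene, at 174-fold in adults and 168-fold in larvae, and in larvae also near chn at 1.9-fold. Pita was near N at 80.7-fold in adults and 43.8-fold in larvae and near chn at 19.1-fold and 8.05-fold, and in adults near Su(H), the transcription factor of Notch signalling, at 3.25-fold.

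The other gene lists are small, and 42.1% of all protein-coding genes had an end near a peak of any list. Of 5 basic helix-loop-helix genes related to the achaete-scute genes 1 had a peak, Oli, with CTCF at 50.6-fold in adults and 31.8-fold in larvae, where CTCF was near 4.09% and 5.19% of all genes. Of the 13 neuroblast factors 3 had one: esg (CP190, 3.72-fold), pros (CP190, 2.95-fold) and wor (larval CTCF, 2.58-fold). Of the 13 genes of the yellow family other than y, 2 had one, yellow-h (CP190, 2.95-fold) and yellow-c (CP190, 2.9-fold). None of the 7 pigmentation genes had an end near a peak of any list. Su(Hw) was near 0 genes of these 4 lists at either stage, beside 7.23% of all protein-coding genes in adults and 8.46% in larvae. This difference was not tested.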

How the data were processed

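The files are 7 peak lists in a layout of 20 columns, that of an IDR comparison of 2 input lists. The authors' deposited values are fold enrichment (a linear ratio), the −log10 p and −log10 q of each peak, the −log10 of its local and global IDR, its −log10 p in each input, and a score derived from the IDR. Coordinates are on dm6 per the submitters' processing notes, in which MACS2, Bowtie2, deepTools, cutadapt, bedtools and Picard are named without roles. Peaks on X, Y, 4 and the major autosome arms were kept. Gene positions came from the RefSeq table of the same assembly, which gives no strand. X and arm lengths run from the first to the last annotated gene. Gene ends at most 500 bp from a peak count as near it. Shares have exact Clopper-Pearson intervals that cover counting error only. The overlap and distance steps were tested on simulated intervals. Python 3.11.15, pandas 2.3.3, numpy 2.4.6 and SciPy 1.17.1 were used.

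The members, the 5 gene lists and the alternatives were chosen with earlier results of these data known. Named are the 5 members, every gene holding or closest to a summit of the region, genes at the nearest peaks beyond it, and up to 4 members of each gene list per peak list. The list symbols h, Dl and AANAT1 were matched through synonyms. The planned search for sequence words was not run, and no sequence was used here. Mutant samples were not analysed on their own, but the CP190 list, which names no genotype, may include some of them.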

Additional observations from a re-analysis of the deposited data

How the results depend on the processing

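Over 8 alternatives 58 of 80 recomputed values stayed within 1.5 times the reported one. An IDR of at most 0.01, overlap of 0.5 of the shorter peak and summits within 200 bp changed none of them. These settings could not do so and are no sign of robustness. The peaks of the region had an IDR of at most 0.00376. Peaks that shared a place overlapped by at least 90.9% of the shorter one, with summits at most 34 bp apart. With the less significant peaks of each list left out (−log10 q under the list's median), the place beside y was the only one left: 1 place, 1 with CP190, 1 CP190 peak, 0 adult and 0 larval Pita peaks, 1 adult peak with a larval partner and 2.37 peaks per 100 kb, while neuroblast factors and the yellow family had 0 genes near a peak. With a flank of 5 kb the place at CG43181 fell outside, which left 1 place with CP190, 1 CP190 peak, 0 adult and 1 larval Pita peak, 1 adult peak with a larval partner and 3.43 peaks per 100 kb. With 20 kb there were 5 places, 4 of them with CP190, 4 CP190 peaks, 1 larval CTCF peak and 2 adult Pita peaks. The density then rose from 5.53 to 8.18 peaks per 100 kb, nearer the 11.9 of X, so the sparseness of the region depends on its flank. Proneural relatives near a peak numbered 0 at 200 bp and 2 at 1000 bp. The adult and larval Su(Hw) peaks beside y stayed in the region, with larval CP190, under every alternative that recomputed them. Only the limit on −log10 q could have removed them, since the place lies within the span from y to ase whatever the flank. No paired analysis was possible because the lists are not tied to samples, so no replicate could be left out either. Depth is unknown, and a place absent from a list may lie below its threshold.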
